A study of Xenopus tropicalis with 26 samples.

Results

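Ion channel genes were taken as every gene of the table whose symbol belongs to the voltage-gated and background K+ channels, the Ca2+ channels of the cell surface and the endoplasmic reticulum, the Na+ channels, the Cl- channels, or the hyperpolarization-activated, TRP and Piezo cation channels, with their auxiliary subunits. The symbol alone decided membership, so that 189 of 34192 genes were taken, with 185 distinct symbols. Of these, 90 were K+ channel genes, 35 were Ca2+ channel genes, 14 were Na+ channel genes, 22 were Cl- channel genes and 28 were hyperpolarization-activated, TRP and Piezo genes. The last group is termed nonselective cation channel genes here. By symbol it also includes the Ca2+ channel *trpv5*, the Mg2+ channel *trpm6* and *trpc4ap*, which does not code for a pore. RNA of whole *Xenopus tropicalis* embryos, selected for polyA, was measured in 26 samples of 10 embryos each. Control embryos were untreated in 1/9x MR, a dilute salt medium, and high K+ embryos were raised with additional KCl, for which the labels give 10 mM and the general methods another dose. Each condition was followed every 30 min from stage 8, the blastula, for 6 h to stage 13 by the methods, with 13 samples. Each condition was 1 time course of pooled embryos without biological replicates, so that every p-value measures the spread between time points and not between clutches. The values are abundances derived from TPM, which account for transcript length, and the depth of the samples is unknown. In whole embryos, fewer cells that express a gene and less RNA in each cell cannot be told apart.

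Ion channels let ions run down their gradients and thereby set the membrane potential. Open K+ channels draw the potential towards negative values, and raising K+ outside the cell depolarizes it, which opens voltage-gated Ca2+ channels. Ca2+ also leaves the endoplasmic reticulum through IP3 and ryanodine receptors, and the sensors STIM and the pores ORAI refill this store. The egg loads the embryo with maternal mRNA, which is cleared during the hours in which the genome of the zygote becomes active.

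Only genes with an abundance above 0.4 in 6 consecutive samples of a condition were tested, which were 15019 of all genes and 74 of the 189 channel genes. These were 26 K+, 15 Ca2+, 4 Na+, 17 Cl- and 12 nonselective cation channel genes. Their median abundance in control, averaged over time, was 3.74, against 19.8 for all tested genes. The pairs of samples at 1.5 h and 4.5 h stood apart: the median log2 difference between high K+ and control over all tested genes was 0.48 at 1.5 h and -0.38 at 4.5 h, and over the channel genes it was 0.49 and -0.36. At 1.5 h, 61 of the 74 channel genes were higher in high K+, and at 4.5 h 68 were lower. The levels of the ERCC spike-in RNAs ranged from -0.58 to 0.65 (log2) between samples. At 1.5 h they were -0.35 in control and 0.14 in high K+, and at 4.5 h they were -0.22 and 0.08. High K+ thus had the higher spike-in level in both pairs, while the median difference was above 0 at 1.5 h and below 0 at 4.5 h. The part of the spike-in levels in these differences was not tested. As the embryonic markers of the label, maternal *vegt*, *gdf1* and *npm2* were present at 0 h and *gsc*, *sox17a*, *sox2* and *actc1* were far higher at 6 h, while the adult muscle gene *myh4* was at 0 in every sample and the globin gene *hba1* stayed below 0.5. Of the other markers, *sox17b.1*, *sox17b.2*, *grhl3* and *foxi1* were also higher at 6 h in both conditions. Ectodermal *sox3* instead went from 744 at 0 h to 285 at 6 h in control. The gene6163 copy of maternal *wnt11* went from 73.1 to 72.1 in control, and the gene8260 copy rose from 2.26 to 19.0. *vegt* itself was highest at 3 h in control, at 485, and at 2.5 h in high K+, at 1255.

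The summed abundance of all 189 channel genes in control was 1917 at 0 h, 2495 at 0.5 h and 714 at 6 h. As a share of the summed abundance of all tested genes under 10000, this was 0.166% at 0 h, 0.189% at 0.5 h and 0.0625% at 6 h. Channel mRNA was thus most abundant in the early samples, both in summed abundance and as a share of the other mRNAs. The K+ class went from 522 to 227 between 0 h and 6 h, the Ca2+ class from 315 to 106, the Na+ class from 80.2 to 51.5, the Cl- class from 587 to 204 and the nonselective cation class from 414 to 126. In high K+, the sum over all classes was 2139 at 0 h, 2762 at 0.5 h and 888 at 6 h, and it was above control at 12 of 13 time points. The log2 ratio of high K+ to control averaged 0.50 ± 0.38 (SD over 13 time points) for the nonselective cation class, against 0.08 ± 0.27 for the K+ class, 0.17 ± 0.36 for Ca2+, 0.25 ± 0.40 for Na+ and 0.19 ± 0.28 for Cl-. The gap of the nonselective cation class came from *trpc4ap* and *trpv4*: without them, left out after their values were seen, the log2 ratio of the other 26 genes was 0.03 ± 0.27, with 6 of 13 time points higher. These sums and ratios are as deposited and include any shift shared by all genes. The mean log2 difference had a median of 0.08 over all tested genes and 0.09 over the tested channel genes. With every sample scaled to a common total it was -0.10 and -0.08. As a share of the total, channel genes were higher in high K+ at 8 time points and lower at 5, with 0.157% against 0.145% in control at 1.5 h and 0.0647% against 0.0829% at 4.5 h.

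**Figure D1:**
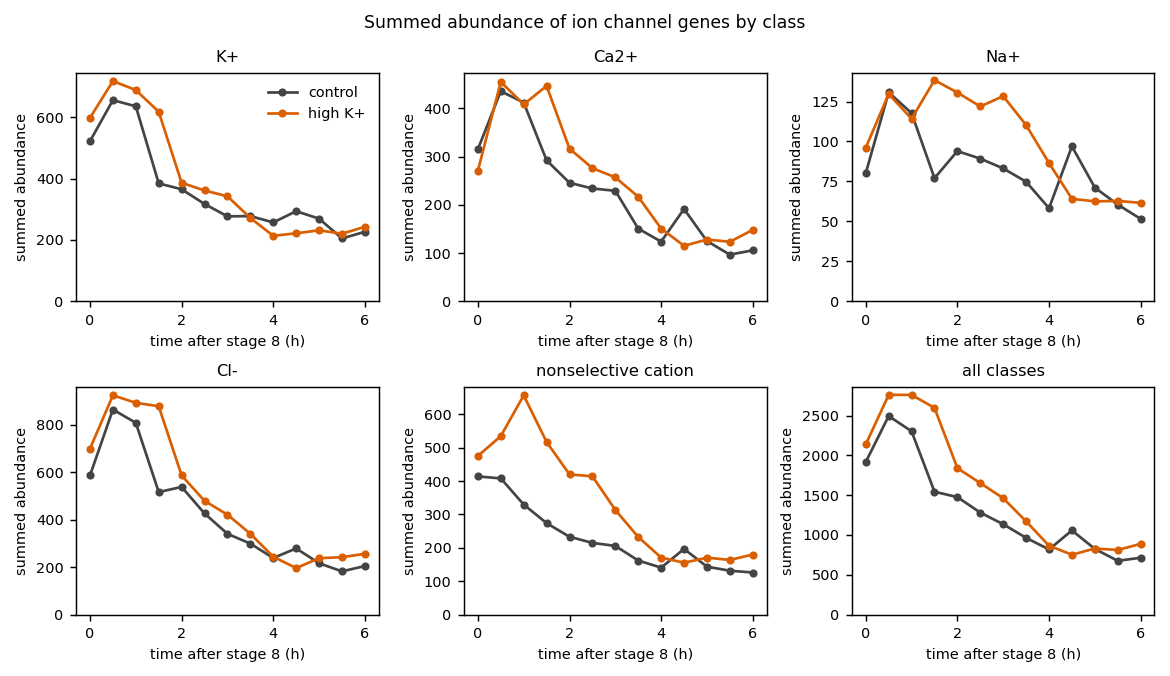
Summed abundance of the channel genes of each ion class (vertical axes, starting at 0) against time after stage 8 in hours, for control (grey) and high K+ (orange), with 1 point per sample and no error since each point is a single sample. All classes are highest within the first 1.5 h, and the nonselective cation class shows the widest gap, with 656.6 in high K+ against 329.6 in control at 1 h, where *trpc4ap* had 364 against 138 and *trpv4* 190 against 66.9.

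The change of each gene over the time course was tested within each condition by comparing the 3 samples of 0-1 h with the 3 samples of 5-6 h (limma on log2(abundance + 1), Benjamini-Hochberg adjusted over all tested genes, threshold 0.05). In control, 47 of the 74 channel genes fell and 14 rose, and the median log2 change was -1.06. Among all tested genes 55.7% fell and 19.5% rose, with a median of -0.87. In high K+, 48 channel genes fell and 16 rose with a median of -1.13, where 53.3% of all tested genes fell and 20.4% rose with a median of -0.78. The 12 samples were also brought to a common median (ratio 1), which moved the median of all genes to 0.07 in control and 0.05 in high K+. In control 38 of the 74 channel genes then fell and 20 rose, against 31.8% and 35.8% of all genes. In high K+ 35 fell and 21 rose, against 30.9% and 35.2% of all genes. All 14 risers in control kept their call on that scale, and of the 47 that fell 9 lost it, which were *itpr2*, *stim1*, *ano5*, *ano8*, *kcnab2*, *kcne5*, *kcnk7*, *scn8a* and *hcn2*. With spike-in scaling all 47 kept theirs and 12 of the 14 rose, the exceptions being *cacng4* and *kcnmb4*. The highest control sample lay at 0-1 h for 52 of the 74 channel genes, or 70.3%, and for 58.9% of all tested genes.

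Among K+ channel genes, 16 of 26 fell in control and 5 rose. The most abundant were genes of the tandem-pore family, which includes channels of the background K+ current of resting cells, and they moved in opposite directions. *kcnk13* was 90.5, 217 and 248 at 0, 0.5 and 1 h and 11.0, 3.38 and 4.22 at 5, 5.5 and 6 h. It fell by 4.71 ± 0.48 (log2, SE; limma, adjusted p = 2.07e-06), and the windows did not overlap. *kcnk5* had 204, 133 and 98.1 in the early window and 23.5, 19.0 and 17.3 in the late one. Its log2 change was -2.75 ± 0.26 (limma, adjusted p = 9.75e-07). *kcnk6* ran the other way, from 2.24, 7.67 and 6.93 to 120, 78.0 and 86.8. It rose by 3.96 ± 0.38 (limma, adjusted p = 1.18e-06) and by 6 h was the most abundant K+ channel gene of the table, while *kcnk7* had 19.6 to 49.4 over all control samples and a log2 change of -0.82 ± 0.22 (limma, adjusted p = 0.00519) that became 0.32 on the scale of a common median. *kcnk1*, of the same family, was listed at 0 in the 3 early control samples and reached 7.51 at 6 h.

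The other K+ channel genes that fell most in control were *kcnj5*, a G protein-gated inward rectifier, and *kcnn2*, a channel opened by Ca2+. *kcnj5* was 22.0, 39.8 and 41.2 early and 2.44, 0.93 and 0.53 late, and its usual partner *kcnj3* reached no more than 0.03 in any sample. *kcnn2* was 6.08, 13.4 and 9.68 early and 0.28, 0.16 and 0.13 late. Both fell in both conditions, with log2 changes of -3.97 ± 0.34 and -3.11 ± 0.34 in control (limma, adjusted p = 4.67e-07 and 4.31e-06). The risers besides *kcnk6* and *kcnk1* were *kcnj15*, another inward rectifier, *kcna3*, a delayed rectifier of the Shaker group, and *kcnmb4*, an auxiliary subunit of the BK channel. *kcnj15* was below 0.05 at 0 h and 9.25 at 6 h in control, with a log2 change of 2.69 ± 0.26 (limma, adjusted p = 1.37e-06). The pore of the BK channel, *kcnma1*, fell by 1.81 ± 0.31 (limma, adjusted p = 0.000188) while *kcnmb4* had a log2 change of 1.02 ± 0.33 (limma, adjusted p = 0.0138), which with spike-in scaling was 0.72 and did not pass (limma, adjusted p = 0.171).

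Most Ca2+ channel genes fell, 11 of 15 in control and 12 of 15 in high K+. The *trpv5* genes, which rose, are counted with the nonselective cation channels. *cacng4*, an auxiliary subunit, was the single riser of the Ca2+ class in control with 10.8 at 6 h, and in high K+, where it was 9.1 at 6 h, its change did not pass (limma, adjusted p = 0.186). Its control windows overlapped, at 3.80, 2.33 and 1.69 early and 3.64, 6.15 and 10.8 late, and with spike-in scaling the change was not past the threshold (limma, adjusted p = 0.0516). The most abundant genes of the class were *stim2* and *orai2* of store-operated entry. *orai2*, a pore of this pathway, was 129, 172 and 158 in the early control samples and 18.9, 13.3 and 11.8 in the late ones. It fell by 3.31 ± 0.24 (limma, adjusted p = 1.21e-07). The sensors *stim2* and *stim1*, which detect an empty store, fell with log2 changes of -2.03 ± 0.34 and -0.88 ± 0.25 (limma, adjusted p = 0.000146 and 0.00681). With the 12 samples set to a common median the change of *stim1* was 0.23 (limma, adjusted p = 0.50), so that its fall depends on the scale. *itpr1*, an IP3 receptor that releases the store, had a control change of -0.78 ± 0.35, and 14.6 to 37.7 over all control samples, and was not past the threshold (limma, adjusted p = 0.0631).

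Of the 11 genes for the pores of voltage-gated Ca2+ channels, 3 were tested, *cacna1c* of the L-type, *cacna1g* of the T-type and *cacna1e* of the R-type. All 3 fell in control, with log2 changes of -1.496 ± 0.24, -1.42 ± 0.25 and -0.80 ± 0.22 (limma, adjusted p = 0.000105, 0.000231 and 0.00537). *cacna1c* was 5.40, 3.82 and 2.78 early and 0.97, 0.66 and 0.59 late. *cacna1g* was 4.29, 4.89 and 4.41 early and 1.49, 0.92 and 0.85 late. Of the auxiliary subunits of such pores, *cacnb2* went from 5.54, 7.76 and 7.07 to 0.73, 0.36 and 0.47. Its log2 change was -2.36 ± 0.23 (limma, adjusted p = 1.57e-06), and *cacna2d1* and *cacnb4* also fell, with log2 changes of -1.94 ± 0.25 and -1.64 ± 0.24, while *cacna2d2* was not past the threshold, at -0.37 (limma, adjusted p = 0.092). The remaining pores, among them *cacna1a*, *cacna1b*, *cacna1h* and *cacna1s*, did not pass the filter, and the highest value among these 8 genes in any sample was 1.15.

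**Figure D2:**
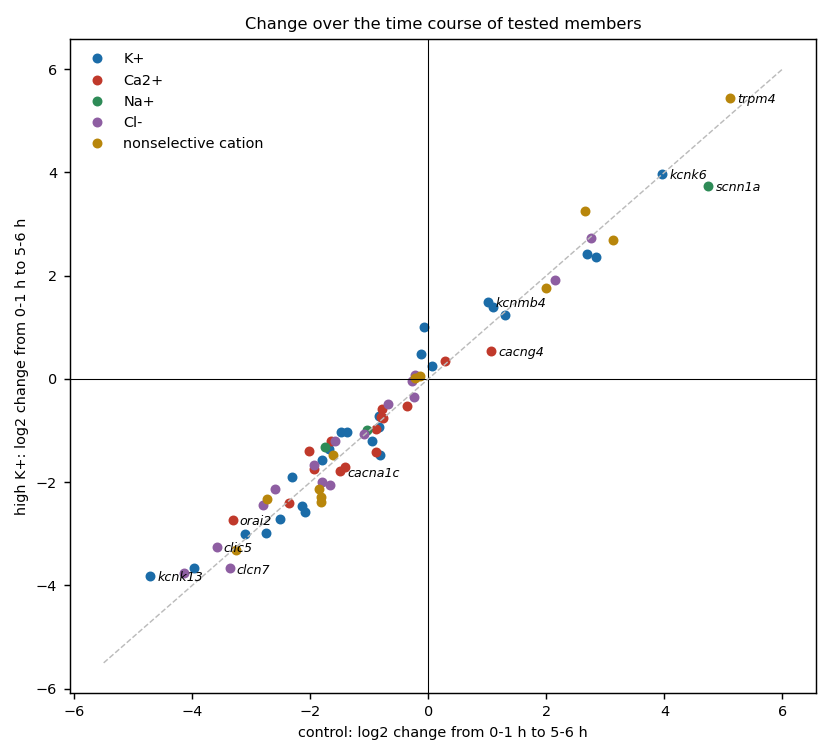
Log2 change of 71 of the 74 tested channel genes from 0-1 h to 5-6 h in control (horizontal axis) and in high K+ (vertical axis), each from 3 against 3 samples, coloured by ion class; the dashed line marks equal change. *kcnk13* lies lowest in control at -4.71, and *trpm4*, *scnn1a* and *kcnk6* lie highest in control, at 5.11, 4.74 and 3.96.

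Of the 4 tested Na+ channel genes, 3 fell and 1 rose in both conditions. Among those that fell were the voltage-gated pores *scn8a* and *scn2a*, with log2 changes in control of -1.75 ± 0.33 and -1.03 ± 0.19 (limma, adjusted p = 0.000371 and 0.000333). *scn8a* had 17.3 to 113 in control, and on the scale of a common median its change was -0.61 and was not past the threshold (limma, adjusted p = 0.0559). The riser was *scnn1a*, the alpha subunit of the epithelial Na+ channel. In control it was listed at 0 at 0, 0.5 and 1 h and stood at 22.9, 30.3 and 24.8 at 5, 5.5 and 6 h. Its log2 change was 4.74 ± 0.24 (limma, adjusted p = 6.94e-09). The beta subunit *scnn1b* did not pass the filter and reached 4.33 at 6 h, and the gamma subunit *scnn1g* stayed at or below 0.47 in control.

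Cl- channel genes passed the filter most often, 17 of 22, and 11 of them fell in control while 3 rose. *clic5*, a chloride intracellular channel protein, was the most abundant channel gene of the table. It was 265, 455 and 439 in the early control samples and 38.7, 24.7 and 29.1 in the late ones, a log2 change of -3.59 ± 0.23 (limma, adjusted p = 5.10e-08). *ano1*, a Cl- channel opened by Ca2+, was 38.2, 76.2 and 63.5 early and 3.80, 2.02 and 1.46 late. It fell by 4.14 ± 0.33 (limma, adjusted p = 2.57e-07). *clcn7*, the exchanger of lysosomes, fell by 3.37 ± 0.27 (limma, adjusted p = 2.60e-07), whereas *clcn3*, an endosomal relative, was not past the threshold with 11.9 to 34.2 in control (limma, adjusted p = 0.48). *clic1* had 76.8 to 144 over the 13 control samples and a log2 change of -0.28 ± 0.24 that did not pass (limma, adjusted p = 0.31). On the scale of a common median both turned, and *clcn3* and *clic1* rose by 0.91 and 0.88 (limma, adjusted p = 0.00499 and 0.000783). The risers included *ano9*, a member of the anoctamin family, and *clic3*. *ano9* was listed at 0 at 0 h in control and was highest, at 15.5, at 4.5 h, with a log2 change of 2.76 ± 0.28 between the windows (limma, adjusted p = 2.17e-06).

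Among the nonselective cation channel genes, 6 fell and 4 rose in control. The risers were all TRP genes, but by symbol so were 10 of the 12 tested genes of this class, of which 4 rose and 4 fell. *trpm4*, which Ca2+ opens and which carries Na+ inward, was 0.028, 0.039 and 0.058 early and 34.3, 34.1 and 36.1 late in control. It rose by 5.11 ± 0.22 (limma, adjusted p = 2.53e-09), and in high K+ it reached 61.1 at 6 h. *trpm6*, a Mg2+ channel with a kinase domain, and both genes listed as *trpv5*, a Ca2+ channel of transporting epithelia, also rose. The gene24431 copy of *trpv5* was listed at 0 at 0-1 h in both conditions and at 6.24 in control at 6 h, and the gene29789 copy likewise at 0 and at 9.97. Reads of such copies can be split between them by the counting, so that their separate levels are uncertain. *trpm7*, a close relative of *trpm6*, fell by 2.73 ± 0.47 (limma, adjusted p = 0.00019), as did *trpv4*, a channel gated by swelling and warmth, with a log2 change of -3.27 ± 0.38 (limma, adjusted p = 6.70e-06). *trpc4ap*, which the symbol brings in although it codes for a protein bound to a TRP channel and not for a pore, fell by 1.85 ± 0.23 (limma, adjusted p = 1.10e-05).

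Of the 14 genes that rose in control, 13 are described here, and they differed in when they came to stay at an abundance of 1 or more. Taking as onset the first sample from which the abundance stayed at 1 or more, *kcnk6*, *kcnmb4* and *cacng4* were above it from 0 h in both conditions. *clic3* was at 1.31 and 1.43 at 0 and 0.5 h in control and, after 0.77 at 1 h, stayed above 1 from 1.5 h. In control the onset of *ano9* and *trpm4* was at 2 h, that of *kcnj15*, *scnn1a* and the gene24431 copy of *trpv5* at 3 h, that of *kcnk1* and the gene29789 copy of *trpv5* at 3.5 h, and that of *kcna3* and *trpm6* at 4.5 h. In high K+ the onset was within 1 h of that in control for each of these genes, and, besides the 3 genes present from 0 h, equal for *ano9*, *trpm4*, *scnn1a*, *kcnk1* and the gene29789 copy of *trpv5*. With 1 course in each condition, a shift of 1 sample has no replicate check. Onsets were read on the deposited scale, and *kcna3* was only at 1.10 in control at 4.5 h, where the pair of samples stood apart.

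**Figure D3:**
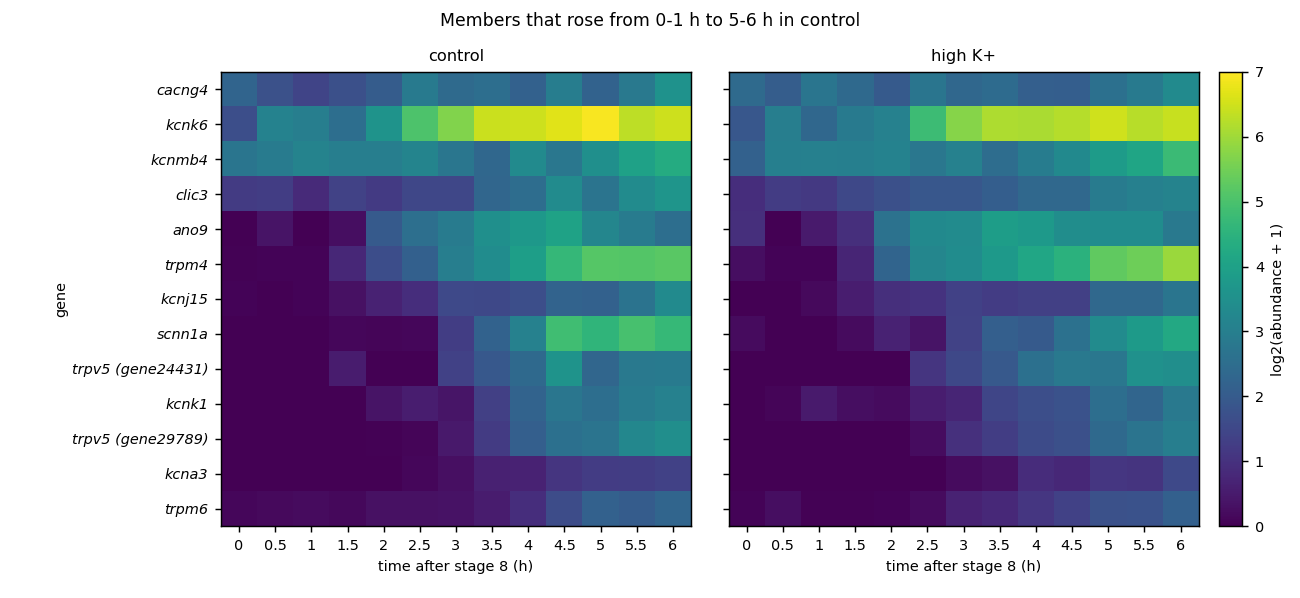
Abundance of 13 of the 14 channel genes that rose in control, as log2(abundance + 1) in colour, for each sample (columns, time after stage 8 in hours) in control (left) and high K+ (right), ordered by onset in control. *kcnk6* is the brightest row with 120 at 5 h in control. *scnn1a* is darker in high K+ from 4 h, with 5.10 against 27.9 in control at 4.5 h, where the gap was widest, and 17.7 against 24.8 at 6 h.

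High K+ and control were then compared gene by gene over the whole time course. A Gaussian process, which fits a smooth curve through the time points, was fitted to both conditions together and to each separately, and a gene was called where the separate fits had the higher log-likelihood, that is, a log-likelihood ratio above 0. Genes higher in high K+ by the fitted curves are termed activated and those lower repressed. Of the 74 tested channel genes, 26 were activated and 5 repressed. Among all tested genes 29.6% were activated and 9.26% repressed, so that the channel genes' 35.1% and 6.76% lay near the background. The median over the 74 genes of the mean log2 difference was 0.09, beside 0.08 for all tested genes. By ion class, 9 of 26 K+ channel genes, 7 of 15 Ca2+, 1 of 4 Na+, 3 of 17 Cl- and 6 of 12 nonselective cation channel genes were activated, and 1 Na+, 2 Cl- and 2 nonselective cation channel genes were repressed.

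The number called depended on how the samples were put on a common scale. When each pair was brought to a median ratio of 1 between its conditions, 14 of the 26 activated genes were still called in that direction, and with every sample scaled to its spike-in RNAs 9 were. The 7 that were called under both were *cacna1c*, *itpr2*, *ano5*, *clcn5*, *kcnf1*, *kcnt2* and *trpv4*. With a common total as the scale, all of these except *cacna1c* were called. Of the 5 repressed genes, *ano2*, *scnn1a*, *trpv1* and the gene29789 copy of *trpv5* were called under both. At 1 h the spike-in level was -0.58 in control and 0.09 in high K+, while the median log2 difference over all tested genes was 0.04. Spike-in scaling therefore lowers high K+ against control in that pair for every gene alike. At 4 h the level was 0.40 in control and -0.12 in high K+, and at 6 h it was 0.36 and -0.17. In these pairs the scaling raises high K+. Which pairs decide a lost call was not tested. Without the pairs at 1.5 h and 4.5 h together, an alternative chosen after seeing the data, 19 of the 26 and 3 of the 5 were still called. A linear model with the time point as block (limma) put 18 channel genes higher and 5 lower in high K+, where 27.1% of all tested genes were higher and 12.5% lower. It called 17 of the 26 activated and 2 of the 5 repressed genes, namely *ano2* and *trpv1*. Without the block limma called 0 channel genes in either direction, and 5 had an unadjusted p under 0.05. Of the 15019 tested genes it then put 598 higher and 126 lower.

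**Figure D4:**
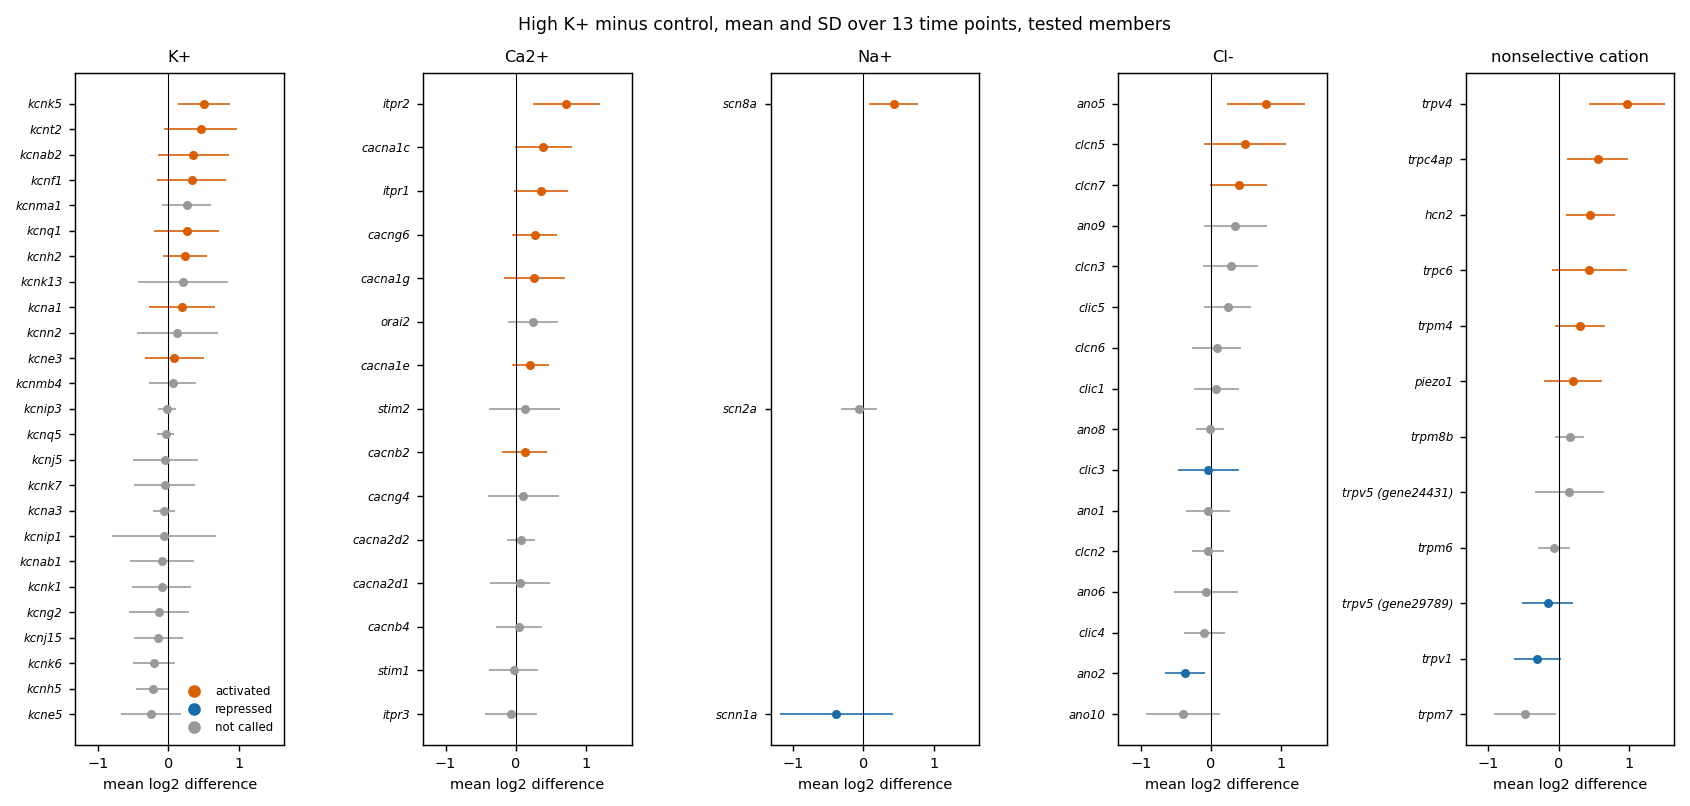
Mean log2 difference of high K+ minus control for 71 of the 74 tested channel genes, in panels by ion class, with bars for the SD over 13 time points, which describes the course and not replicates. Activated genes are orange, repressed genes blue and genes that were not called grey; *trpv4* has the largest mean, at 0.97.

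*trpv4* had the largest log-likelihood ratio of the channel genes, 19.1. It ranged from 3.63 to 83.3 in control with a median of 47.6 and from 8.64 to 190 in high K+ with a median of 99.6. In 12 of 13 pairs high K+ was the higher, and its mean was 2.18 times that in control. The level was 66.9 in control and 190 in high K+ at 1 h, 47.6 and 153 at 2.5 h, and 31.2 and 29.2 at 4.5 h. The log2 difference was 0.97 ± 0.14 (SE; limma with the block, adjusted p = 7.33e-05), and it was 0.86 and 0.83 under the median-ratio and spike-in scalings. The ratio was at least 14.9 when any single time point was left out.

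The other nonselective cation channel genes with large ratios were *trpc4ap* (9.67) and *hcn2* (8.79), a pacemaker channel opened by hyperpolarization. *trpc4ap* was 47.7 to 266 in control (median 84.8) and 66.9 to 364 in high K+ (median 131), and was higher at 12 time points. *hcn2* was 4.49 to 23.3 in control (median 15.4) and 8.10 to 37.6 in high K+ (median 21.4), and was higher at 11. Their log2 differences were 0.56 ± 0.11 and 0.45 ± 0.10 (limma with the block, adjusted p = 0.00124 and 0.00306). With spike-in scaling the ratios were -0.08 and -3.09, so that neither was called on that scale. The mechanically gated *piezo1* had a ratio of 4.73, with 10 time points higher, and -0.06 and -9.82 under the 2 scalings. *trpm4* had a ratio of 1.21 as deposited, which became -3.82 without the pair at 6 h and was below 0 also without the pairs at 2, 2.5 or 3.5 h.

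Among the Ca2+ channel genes the largest ratio was that of *itpr2* (9.74), an IP3 receptor. It was 1.36 to 8.97 in control with a median of 2.91 and 2.92 to 17.4 in high K+ with a median of 6.5. High K+ exceeded control in all 13 pairs, with the widest gap at 2 h (2.89 against 9.68) and the narrowest at 5 h (2.91 against 3.05). The log2 difference was 0.72 ± 0.13 (limma with the block, adjusted p = 0.000441), and 0.59 with spike-in scaling. *itpr1* was higher at 11 time points with a log2 difference of 0.35 ± 0.11 (limma with the block, adjusted p = 0.0163), but its ratio of 0.68 became -1.52 and -1.23 without the pairs at 1.5 h and 2 h. *itpr3* was not called, at -4.29 with 4 time points higher.

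All 3 tested pores of voltage-gated Ca2+ channels were activated, as were 29.6% of all tested genes, and none of them was called under every scaling. *cacna1c* had a ratio of 5.43 and was 0.59 to 5.40 in control (median 1.97) and 0.86 to 8.02 in high K+ (median 3.45). Both conditions began alike, at 5.40 and 5.39 at 0 h, stood at 2.78 and 8.02 at 1 h, and were again close at 4 h, at 1.29 and 1.39. The log2 difference was 0.39 ± 0.11 (limma with the block, adjusted p = 0.0117), and the ratio was 1.16 with spike-in scaling and -1.28 with a common total. *cacna1g* had a ratio of 8.43 and was 0.85 to 4.89 in control (median 2.93) and 0.90 to 8.11 in high K+ (median 3.83). It was higher at 9 of 13 time points, with 3.30 in control and 7.13 in high K+ at 2 h and 2.56 and 1.26 at 4.5 h. Its log2 difference of 0.26 ± 0.12 was not past the threshold by limma (adjusted p = 0.0892), and its ratio was -4.25 with spike-in scaling. *cacna1e* had a ratio of 1.96 and values of 0.16 to 1.34 in control and 0.22 to 1.86 in high K+. Its ratio was -1.94 and -4.95 under the median-ratio and spike-in scalings and -0.75 and -0.67 without the pairs at 1.5 h and 2 h, and its log2 difference missed the threshold (limma with the block, adjusted p = 0.0505). The auxiliary *cacnb2* had a ratio of 0.34, which was below 0 without any 1 of 7 time points and lowest, at -3.65, without 1.5 h.

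The store-operated genes were not called, and the ratios of *orai2*, *stim2* and *stim1* were -7.61, -5.24 and -4.51. Their mean log2 differences were 0.24, 0.13 and -0.03, with 10, 7 and 6 of 13 time points higher. The medians in control and high K+ were 33.3 and 40.4 for *orai2*, 92.9 and 101 for *stim2*, and 18.2 and 18.8 for *stim1*.

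The K+ channel gene at the centre of the study, *kcnh6*, codes for an ether-a-go-go related channel and was depleted in other embryos. Its abundance was too low for the filter, so it was not among the tested genes. The study itself detected *kcnh6* by in situ hybridization in future ectoderm and in dorsal and paraxial mesoderm as gastrulation began. It also plots a rise of these transcripts from an earlier RNA-seq time course, with which the values here were not compared. The study's methods state that an earlier gene model of the *Xenopus tropicalis* genome carried *kcnh6* under the name *kcnh2*. The reads were aligned to a later build, and here both genes are told apart by the symbol of the table alone. In control *kcnh6* was 0.055 to 0.31 with a median of 0.12 and in high K+ 0.12 to 0.49 with a median of 0.23. All 13 pairs had more in high K+, from a gap of 0.151 against 0.149 at 3.5 h to one of 0.43 against 0.055 at 1 h. Among all genes with any value above 0, 2.52% were higher in high K+ at all 13 time points, and among the channel genes these were *itpr2* and *kcnh6*, 2 of 182. If every gene with a value above 0 is fitted, *kcnh6* has a log-likelihood ratio of 5.01. The count of 13 pairs and this ratio are on the deposited scale, and *kcnh6* was not fitted under the other scalings. At such levels single reads may decide a value, and the depth is unknown.

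Of the other 7 *kcnh* genes, 2 were tested. *kcnh2*, the close relative of *kcnh6* that carries the rapid delayed rectifier current of the heart, was 0.091 to 1.4 in control (median 0.48) and 0.11 to 2.13 in high K+ (median 0.86). It had a ratio of 6.58 and was higher at 10 time points, with 0.47 in control and 1.84 in high K+ at 2 h. The log2 difference of 0.23 ± 0.09 missed the threshold (limma with the block, adjusted p = 0.0509), and the ratio was -0.45 with spike-in scaling. *kcnh5* pointed the other way, with 0 to 3.74 in control (median 1.07) and 0.041 to 2.06 in high K+ (median 0.68). Its ratio of -2.05 did not call it, while limma with the block put it lower by -0.22 ± 0.08 (adjusted p = 0.0323). Under the 2 scalings its ratio was 0.16 and 0.92. The remaining 5, *kcnh1*, *kcnh3*, *kcnh4*, *kcnh7* and *kcnh8*, reached at most 0.70 in any sample, and *kcnh8* was at 0 in all of them.

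**Figure D5:**
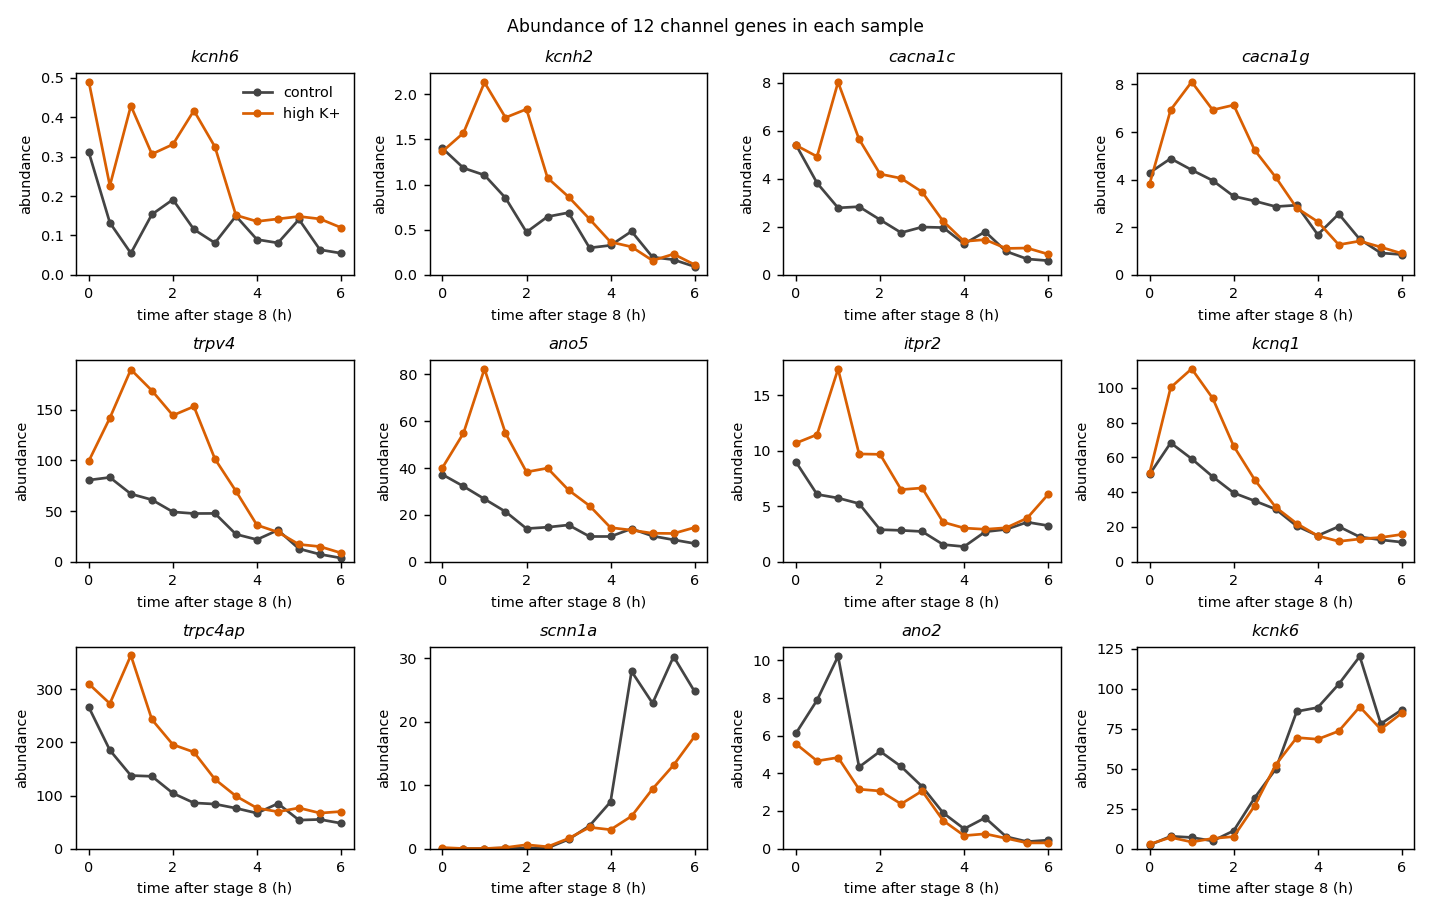
Abundance of 12 channel genes (vertical axes, starting at 0) in each of the 13 control (grey) and 13 high K+ samples (orange) against time after stage 8 in hours, 1 point per sample. In *trpv4*, *ano5*, *itpr2*, *cacna1c* and *kcnh2* the orange curve peaks at 1 h, at 190, 82.4, 17.4, 8.02 and 2.13, while *scnn1a* stays lower in high K+ from 3.5 h. These peaks at 1 h all come from the same single high K+ sample.

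Among the other K+ channel genes, the gene23794 copy of *kcnt2*, a channel opened by Na+, had the largest ratio at 12.3. It was 1.89 to 17.4 in control (median 7.87) and 2.12 to 29.3 in high K+ (median 12.2), higher at 12 time points. High K+ exceeded control by 0.46 ± 0.14 on the log2 scale (limma with the block, adjusted p = 0.0147), and the ratio with spike-in scaling was 0.52. The other *kcnt2* gene reached at most 0.35 and was not tested. *kcnq1*, a slow delayed rectifier, had a ratio of 9.80 and was 11.2 to 68.3 in control (median 30.2) and 11.7 to 111 in high K+ (median 31.3). The medians were close and the gap was early, with 59.2 against 111 at 1 h, 48.9 against 94.0 at 1.5 h, and 15.0 against 14.9 at 4 h. The log2 difference of 0.26 ± 0.12 was not past the threshold by limma (adjusted p = 0.0989), and the ratio was -7.53 with spike-in scaling. *kcnk5* was higher at 12 time points with a log2 difference of 0.51 ± 0.10 (limma with the block, adjusted p = 0.00124), and its ratio of 2.96 became -0.15 and -4.47 under the 2 scalings. The tandem-pore genes *kcnk13*, *kcnk6* and *kcnk7* were not called, at -6.68, -6.67 and -3.15.

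Among the Cl- channel genes, *ano5*, known as a phospholipid scramblase of muscle and bone in mammals, had the largest ratio at 13.6. It was 7.77 to 37.2 in control (median 14.1) and 12.1 to 82.4 in high K+ (median 30.6), and higher at 12 time points. On the log2 scale the difference was 0.78 ± 0.14 (limma with the block, adjusted p = 0.0005), and the mean in high K+ was 1.91 times that in control. *clcn5*, an exchanger of endosomes, had a ratio of 10.6 and was 8.63 to 38.4 in control (median 19.5) and 9.98 to 71.9 in high K+ (median 32.7). Its log2 difference was 0.48 ± 0.15 (limma with the block, adjusted p = 0.0172). *clcn7* was called at 4.15 with a log2 difference of 0.39 ± 0.11 (limma with the block, adjusted p = 0.0124), but not under the 2 scalings, at -0.05 and -3.30.

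*ano2*, a Ca2+-activated Cl- channel known from olfactory neurons of mammals, went against its relative *ano5*. It was 0.37 to 10.2 in control (median 3.29) and 0.30 to 5.56 in high K+ (median 2.37), and it was lower in high K+ at all 13 time points. The log2 difference was -0.37 ± 0.09 (limma with the block, adjusted p = 0.00454). Its ratio was 2.17 as deposited, 4.95 and 6.2 under the 2 scalings, and -0.20 without the pair at 1 h. *clic3* was called as repressed at 1.34, with 0.77 to 11.6 in control and 0.90 to 7.83 in high K+, but the ratio was -0.29 without the pair at 6 h and -3.37 with spike-in scaling. The abundant *clic5* and *clic1* and the Ca2+-activated *ano1* were not called, at -6.24, -5.07 and -9.92.

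*scnn1a* had the largest ratio of the repressed channel genes, 9.26. In control it was 3.59, 7.36, 27.9, 22.9, 30.3 and 24.8 from 3.5 h to 6 h, and in high K+ it was 3.35, 2.97, 5.10, 9.40, 13.2 and 17.7. It was lower in high K+ at each of these 6 time points, while up to 3 h all values of either condition were at or below 1.59. The mean in high K+ was 0.46 times that in control, and the ratio was 11.8 and 8.18 under the 2 scalings and at least 5.97 without any single time point. Averaged over the course, early samples near 0 included, the difference was -0.39 ± 0.19 and was not past the threshold (limma with the block, adjusted p = 0.12). The only activated Na+ channel gene, *scn8a*, was 17.3 to 113 in control (median 66.7) and 28.3 to 127 in high K+ (median 95.5). Its ratio was 2.09 and its log2 difference 0.43 ± 0.10 (limma with the block, adjusted p = 0.00272), and the ratio was -0.15 and -3.01 under the 2 scalings.

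The repressed nonselective cation channel genes were *trpv1*, the heat and capsaicin receptor, and the gene29789 copy of *trpv5*. *trpv1* was 0.47 to 1.25 in control (median 0.93) and 0.19 to 1.13 in high K+ (median 0.64), lower at 10 of 13 time points. The log2 difference was -0.31 ± 0.10 (limma with the block, adjusted p = 0.0168). The *trpv5* copy had a ratio of 1.92 that was -0.99 without the pair at 5.5 h and below 0 also without those at 4.5 h and 6 h, and the other copy was not called. *trpm7* was not called as deposited, at -0.84, although it was lower in high K+ at 11 time points with a log2 difference of -0.48 ± 0.12 (limma with the block, adjusted p = 0.00506). Its ratio was 1.27 and 0.80 under the 2 scalings.

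Whether the difference between the conditions changed over the course was tested from the log2 differences of the first 6 time points (to 2.5 h) and the last 7 (from 3 h). By limma, 0 channel genes and 0% of all tested genes passed the threshold. At an unadjusted p under 0.05 there were 16 of the 74 channel genes (21.6%) and 1970 of all tested genes (13.1%), and in 15 of the 16 high K+ stood higher relative to control in the first 6 time points. The directions of the 1970 genes were not counted, so that the 15 of 16 cannot be set against all genes. Over all tested genes the median change, first minus last, was 0.07 as deposited and -0.23 with spike-in scaling. Over the channel genes it was 0.14 as deposited. The pair at 1.5 h lay in the first part and the pair at 4.5 h in the last. Among the lowest p were those of *scnn1a*, *piezo1*, *kcnq1* and *kcnt2* (gene23794), with changes of 1.06, 0.59, 0.61 and 0.67 (log2, first minus last; limma, adjusted p = 0.26, 0.26, 0.28 and 0.28). With spike-in scaling the changes of *piezo1*, *kcnq1* and *kcnt2* (gene23794) were 0.27, 0.25 and 0.35 (limma, unadjusted p = 0.30, 0.39 and 0.22). In *scnn1a* the mean difference was 0.18 in the first and -0.87 in the last time points. With the first 7 against the last 6 time points, *scnn1a* passed the threshold (limma, adjusted p = 0.0496), where its adjusted p was 0.127 to 0.378 under the other alternatives.

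The 115 channel genes that were not tested were mostly near 0: 65 did not reach 0.4 in any sample, 7 of them listed at 0 throughout, 32 had a highest value between 0.4 and 1, and 18 reached 1 or more. Most of the latter were late, and the highest of them was *cacng1*, a subunit known from the Ca2+ channel of muscle. It was 3.51, 10.5 and 19.9 at 5, 5.5 and 6 h in control and 5.73, 8.98 and 25.6 in high K+, and at most 1.58 before. Others highest at 6 h were *scnn1b*, *kcnj16* and *kcnj2*, at 4.33, 4.09 and 3.28 in control and 6.41, 6.14 and 4.53 in high K+. They had no test, since they passed the minimum in too few consecutive samples.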

How the data were processed

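RNA-seq libraries of 13 control and 13 high K+ samples were grouped by their labels. The authors used STAR for alignment and RSEM for isoform TPM, removed a dependence on dinucleotide content by regression on the ERCC spike-in RNAs, 1 fit per condition, and added up the isoforms of a gene. No versions are given in the sources used here. These corrected abundances are what was deposited, as signal values. They are not counts, and depth is unknown. A model fitted per condition can itself shift levels between conditions, and scaling alternatives were run for this reason. Each scaling applies 1 factor per sample, so it cannot remove a shift that differs between transcripts. The spike-in scaling also rests on the ERCC RNAs to which that model was fitted.

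Genes above 0.4 in 6 consecutive samples were tested. The Gaussian process (Matern kernel, alpha 1, beta 1000, time in hours, mean 0) ran in Python 3.11.15 with numpy 2.4.6 and numba 0.67.0. Linear models were fitted to log2(abundance + 1) with limma 3.58.1 (R 4.3.3). Both were checked on simulated data with independent noise and no shift shared by the genes of a sample. That check therefore does not cover shifts such as those at 1.5 h and 4.5 h. A difference is log2(high K+ + 1) minus log2(control + 1) at one time, which understates changes of low genes. Time points pair the samples by label. Deviations of same-time samples from their condition mean correlated at 0.573 to 0.924. The control samples at 1, 2 and 3.5 h correlated best with the high K+ samples at 0.5, 1.5 and 4 h. The other control samples correlated best with the high K+ sample of the same time. An offset in timing between the conditions was not tested.

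Members, lists and tests were chosen with earlier results of these data known. Named genes were *kcnh* and *cacna1* genes, the 5 most abundant of each class, up to 3 called and 3 changed in control in each direction per class, and the 5 with the lowest p between early and late time points. Subunit partners, copies and untested genes named beside them, and genes listed by a count, were added after values were seen. Alternatives were 3 scalings, other filters, pseudocount, windows and time unit, the Bayesian information criterion, limma with and without the block, and leaving out time points. No gene is listed as *tbxt*, and this marker was not analysed here. Results of some further genes that the rule selects are not reported here, though they stay in the counts. Coordinates and sequences were not used.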

Additional observations from a re-analysis of the deposited data

How the results depend on the processing

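The 26 activated channel genes became 14 with pairs at a median ratio of 1, 9 with spike-in scaling, 10 with a common total under 10000, 42 with any value above 0 as the filter, 13 by the Bayesian information criterion, and 19 to 26 when each time point was left out. The 5 repressed became 8, 8, 14, 26 and 1 under the same settings, 3 without the pairs at 1.5 h and 4.5 h (chosen after seeing the data), and 3 to 7 when each time point was left out, the fewest without 6 h. With the time point as a replicate block, limma gave 18 higher and 5 lower, and without this pairing 0 and 0. With spike-in scaling the block gave 5 higher, where 1708 of the 15019 tested genes were higher and 2017 lower. The Gaussian process alternatives were fitted for the channel genes only, so they have no share over all genes beside them. In control, 14 genes rose, and 12 to 14 rose and 46 to 48 fell when each sample was left out. With any value above 0 as the filter 31 channel genes rose in control, where 3898 of all 25597 genes did. In high K+ 16 rose, and 13 to 15 rose and 45 to 50 fell when each sample was left out. Under that filter 31 rose in high K+, where 3901 of all 25597 genes did. The count of 0 between early and late time points became 1 with the first 7 against the last 6. Of the 15019 tested genes, 98 then had a higher difference early and 3 a lower one. The cause of these changes was not tested. Unknown depth limits the low genes, such as *kcnh6*.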

Other observations

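A second list held other genes of ion movement, which the symbols above do not include: neurotransmitter-gated channels, purinergic, acid-sensing and cyclic nucleotide-gated channels, gap junctions, aquaporins, volume-regulated anion channels, mitochondrial channels, and the Na+ and Ca2+ pumps and exchangers. Of 164 such genes, 58 passed the filter. In control 38 of them fell and 13 rose between 0-1 h and 5-6 h, with a median log2 change of -1.11 (limma), and in high K+ 37 fell and 12 rose with a median of -1.08. Between the conditions 22 were activated and 2 repressed by the Gaussian process, with a median log2 difference of 0.09, the same as that of the channel genes at this precision. These 37.9% and 3.45% stand beside 29.6% and 9.26% of all tested genes.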
